A study of Homo sapiens with 9 samples.

Results

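The genes described here encode the ADAM and ADAMTS metalloproteases and the ADAMTS-like proteins of human cells. They were taken as the rows of the value table whose single gene symbol is ADAM, ADAMTS or ADAMTSL followed by a number, with the pseudogenes ADAM5 and ADAM6 and all antisense transcripts left out. The rule gave 42 of the 22411 genes tested, each with 1 row: 19 ADAM, 18 ADAMTS and 5 ADAMTSL genes. ADAM7 and ADAMTS7, for which no row carried a single symbol, were not analysed here. Expression was measured on 9 whole-transcript microarrays from MCF-10A, a human mammary epithelial cell line that does not form tumours. All cells carried a Tet-on system and were given doxycycline, and RNA was taken at day 7. The groups were cells with induced ERK2 D319N, cells with induced ERK2 Y261A and cells with the empty vector, 3 arrays each. ERK2 is the last kinase of the RAS, RAF and MEK cascade, and the substitutions lie at its docking surfaces for partner proteins, the common docking site (D319N) and the pocket for the DEF motif (Y261A). The growth medium held serum, EGF, insulin, hydrocortisone and cholera toxin in every group. No group with wild-type ERK2 was analysed here, the ERK2 transcript was not analysed here, and the labels do not say whether a line is 1 clone or whether replicates are separate cultures. P-values therefore measure how far these arrays scatter, and that scatter may be technical.

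ADAM proteins are membrane-anchored proteases that cut the outer part of other membrane proteins from the cell, a step called shedding, and so release EGF receptor ligands, cytokines and adhesion molecules. Some ADAMs lack a working catalytic site and act in adhesion. ADAMTS proteins are secreted, bind the matrix through thrombospondin repeats and cut proteoglycans, procollagens or von Willebrand factor, while ADAMTS-like proteins hold the repeats without a protease domain. In breast epithelium ADAM17 is known for releasing the EGF receptor ligand amphiregulin during duct growth.

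Levels are given as log2 RMA signal, so that a difference of 1 is a doubling of signal. Each gene has its own probes, so levels are compared between arrays and not between genes. The 23 background probe sets of the arrays averaged 4.85, and a mean under this is called near background. Differences were tested with limma, a linear model fitted over all 22411 genes with Benjamini-Hochberg adjustment, and a gene counts as called where its adjusted p lies under 0.05. The comparisons of D319N and of Y261A cells with vector cells share the 3 vector arrays. Replicate arrays correlated at 0.995 to 0.999. D319N replicate 2 and Y261A replicate 3 stood apart from their groups together, with a correlation of their deviations over all genes of 0.604. Among the genes described here whose 3 values were not all equal, D319N replicate 2 was alone highest of the D319N arrays in 18 of 33, and Y261A replicate 3 was alone highest of the Y261A arrays in 23 of 36.

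The 8 breast epithelial markers measured of 12 listed were all above background in every group, which fits the labelled cell type. Their summed linear signal ran from 7948 to 8964 on D319N arrays and from 11493 to 12746 on Y261A arrays. On vector arrays it ran from 13699 to 14377. Such a sum rests most on bright signals, here KRT5, with a mean log2 of 12.78 in vector and 11.49 in D319N cells. Of these 8, 5 were called lower in D319N cells (CDH1, EPCAM, KRT5, KRT8 and KRT18). KRT7 (-0.16), KRT14 (-0.026) and ITGB4 (0.15) were not called there. In Y261A cells none of the 8 was called in limma, and 7 had an unadjusted p under 0.05. Of these 7, the same 5 genes were lower, while KRT14 (0.34) and ITGB4 (0.19) were higher. Of 11 fibroblast markers measured, 4 were called higher in D319N cells (COL6A3, DCN, FAP and POSTN) and 2 in Y261A cells (DCN and FAP). COL1A1 (0), COL1A2 (-0.067), PDGFRB (-0.083) and THY1 (-0.032) were above background and were not called in D319N cells. The median difference of the list was 0.0088 between D319N and vector cells and 0.072 between Y261A and vector cells. The summed signal ran from 1041 to 1100 on D319N arrays, from 587 to 610 on Y261A arrays and from 514 to 518 on vector arrays. The fibroblast markers LUM, PDGFRA and TCF21 lay near background in each group. The 9 leukocyte markers summed to between 806 and 943 on D319N arrays, 612 and 632 on Y261A arrays and 643 and 677 on vector arrays, with PTPRC and LYZ near background. Of the leukocyte markers, CD68 was called higher in D319N cells (1.57), LAPTM5 was called lower in D319N cells (-0.86) and in Y261A cells (-0.68), and the median difference between D319N and vector cells was -0.074. None of the 8 endothelial markers was called in limma, and 1 had an unadjusted p under 0.05 between D319N and vector cells. The 8 endothelial markers summed to between 363 and 420 on D319N arrays, 399 and 456 on Y261A arrays and 400 and 421 on vector arrays, with PECAM1, TEK and ERG near background in each group. The part of these markers in the results that follow was not tested, and in bulk RNA a change in the share of cells of a kind cannot be told apart from a change in RNA per cell.

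In D319N cells 6 of the 42 genes were higher than in vector cells and none was lower. ADAMTS6, ADAM19 and ADAM12 rose most, ADAM10 and ADAM9 rose by less, and ADAM23 rose slightly near background. The share of 14.3% called stands beside 16.6% of all genes, so the family was not called more often than genes in general. By direction, 14.3% of these genes were higher, beside 8.93% of all genes, and 0% lower, beside 7.66%. The median difference over the 42 genes was -0.0099, against -0.026 over all genes tested. Among the 25 genes with a mean at or above background, 5 were called (20%), beside 21.1% of all such genes. The groups did not overlap in 7 genes, the 6 called ones and ADAMTSL5, a share of 16.7% beside 32% of all genes. All 7 were higher in D319N cells, beside 15.1% of all genes higher and 16.9% lower without overlap.

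**Figure D1:**
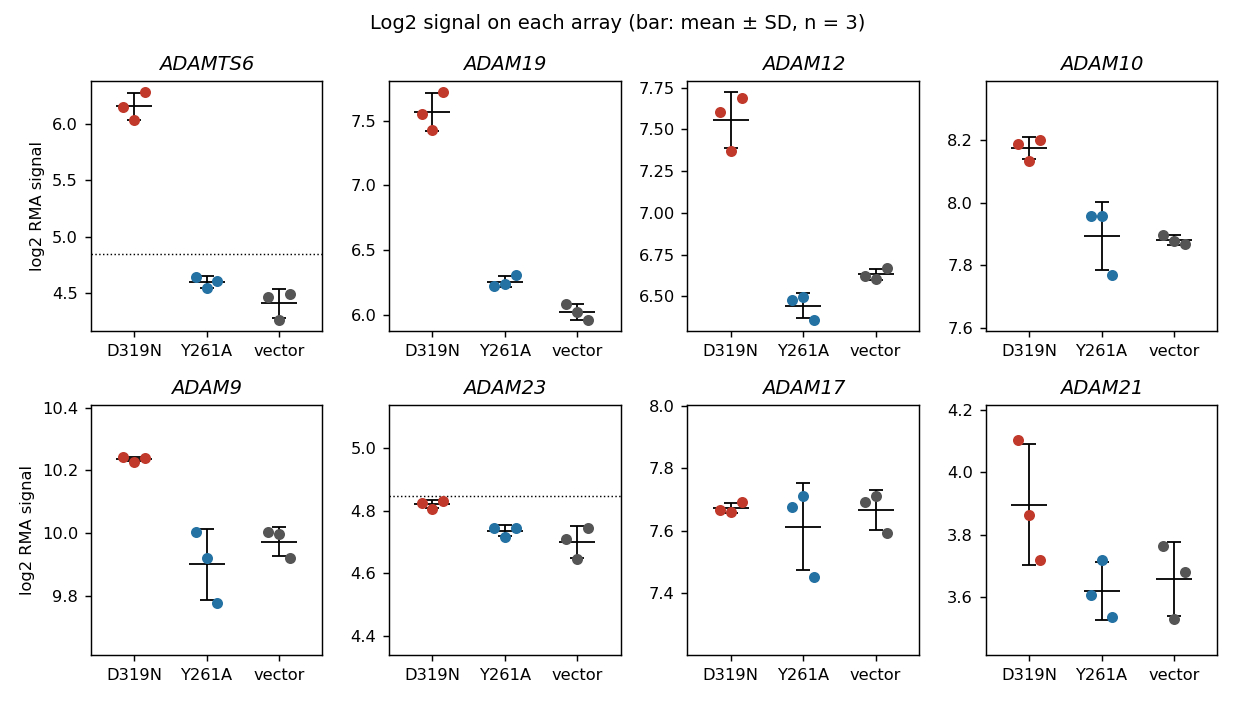
Log2 RMA signal on each of the 9 arrays (points) with the mean ± SD of each group (n = 3) for the 6 genes called in D319N cells and for ADAM17 and ADAM21, each panel on its own axis. The D319N arrays of ADAMTS6, ADAM19 and ADAM12 lie far above both other groups, and the dotted line is the background mean of 4.85, drawn where it falls in the panel.

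ADAMTS6, a secreted protease closely related to ADAMTS10 and linked to the fibrillin matrix, had signals of 6.15, 6.04 and 6.28 on the D319N arrays. On the Y261A arrays it had 4.64, 4.54 and 4.60, and on the vector arrays 4.47, 4.26 and 4.49. All 3 D319N arrays were above background and the other 6 arrays below it. The difference between D319N and vector cells was 1.75 ± 0.08 (log2, moderated SE), a 3.37-fold rise (adjusted p = 2.04e-05, limma). Because the vector mean of 4.41 ± 0.13 (SD, n = 3) was near background, the rise may also be given against the background mean, as at least 2.48-fold. Between D319N and Y261A cells the difference was 1.56 ± 0.08 (adjusted p = 5.39e-05, limma). The Y261A mean of 4.60 was also near background, so the bound of 2.48-fold (1.31 on the log2 scale) applies there under the same assumption. By p-value ADAMTS6 ranked 75 of 22411 genes between D319N and vector cells.

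ADAM19, also known as meltrin beta and able to shed neuregulin, had 7.56, 7.43 and 7.72 on the D319N arrays, 6.23, 6.24 and 6.31 on the Y261A arrays and 6.09, 6.02 and 5.96 on the vector arrays. The 3 groups did not overlap: every D319N array lay above every Y261A array, and every Y261A array above every vector array. It rose 2.92-fold in D319N cells against vector cells (1.54 ± 0.07, adjusted p = 2.19e-05, limma) and 2.48-fold against Y261A cells (1.31 ± 0.07, adjusted p = 7.84e-05, limma). By p-value it ranked 82 and 74 in these comparisons.

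ADAM12, meltrin alpha, sheds HB-EGF and other ligands and is found in muscle, placenta and many tumours. Its signals were 7.61, 7.37 and 7.69 on the D319N arrays, 6.48, 6.50 and 6.36 on the Y261A arrays and 6.62, 6.61 and 6.67 on the vector arrays. Here the Y261A arrays were the lowest and the vector arrays lay between the 2 mutants, again with no overlap. ADAM12 rose 1.90-fold in D319N cells against vector cells (0.92 ± 0.08, adjusted p = 3.45e-04, limma) and 2.16-fold against Y261A cells (1.11 ± 0.08, adjusted p = 2.51e-04, limma). The rises of ADAMTS6, ADAM19 and ADAM12 kept their direction and their call in all 19 alternatives in both comparisons.

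The promoters of these 3 genes and of ADAM10 are shown because these called genes differed most among those whose sequence can be shown. They are RefSeq sequences of GRCh38.p14, each from 250 bases before to 50 bases after the gene start and written along the strand of the gene: chr5:65481871-65482170 for ADAMTS6, chr5:157575726-157576025 for ADAM19, chr10:126388428-126388727 for ADAM12 and chr15:58749658-58749957 for ADAM10, all on the minus strand. Capitals mark a match on either strand to TGANTCA (AP-1), GGAAGT (ETS) or CAGGTG (an E-box that SNAI and ZEB factors bind).
ADAMTS6: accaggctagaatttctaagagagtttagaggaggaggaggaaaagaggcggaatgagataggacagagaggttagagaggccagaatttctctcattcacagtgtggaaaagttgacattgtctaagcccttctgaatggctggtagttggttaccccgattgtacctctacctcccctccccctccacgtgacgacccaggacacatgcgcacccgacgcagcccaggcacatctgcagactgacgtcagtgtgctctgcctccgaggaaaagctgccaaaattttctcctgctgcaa
ADAM19: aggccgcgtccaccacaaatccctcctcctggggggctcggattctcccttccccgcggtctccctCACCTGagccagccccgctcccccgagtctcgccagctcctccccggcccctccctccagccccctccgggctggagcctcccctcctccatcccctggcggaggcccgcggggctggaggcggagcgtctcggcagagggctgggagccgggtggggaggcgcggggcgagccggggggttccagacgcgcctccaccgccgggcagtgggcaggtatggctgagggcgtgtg
ADAM12: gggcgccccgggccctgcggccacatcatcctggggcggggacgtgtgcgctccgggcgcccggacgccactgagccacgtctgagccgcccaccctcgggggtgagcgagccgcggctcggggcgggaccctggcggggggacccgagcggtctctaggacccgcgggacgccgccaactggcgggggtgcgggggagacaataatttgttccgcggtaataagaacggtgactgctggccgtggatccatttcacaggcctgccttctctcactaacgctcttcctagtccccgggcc
ADAM10: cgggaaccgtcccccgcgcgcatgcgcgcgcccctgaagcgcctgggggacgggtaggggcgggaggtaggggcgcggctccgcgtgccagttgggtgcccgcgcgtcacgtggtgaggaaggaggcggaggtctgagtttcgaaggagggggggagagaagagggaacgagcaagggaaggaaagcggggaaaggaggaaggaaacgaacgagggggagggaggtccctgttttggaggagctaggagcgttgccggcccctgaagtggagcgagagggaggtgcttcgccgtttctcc
The only match in the 4 windows was the E-box of ADAM19, at position -184 relative to the gene start. GC content was 52% for ADAMTS6, 75.7% for ADAM19, 71% for ADAM12 and 68% for ADAM10, beside a median of 58.7% over all 35116 promoters in the table. Of the 28 genes of the family with a promoter there, 8 held the E-box, 5 the ETS motif and 1 the AP-1 motif. Over all promoters the shares were 20.6%, 22.8% and 7.71%. The family was counted by gene, with a match in any of its promoters, and these shares by promoter. The E-box was also found in the promoters of ADAM17 and ADAM8, which were not called in any comparison. A match describes the letters of the sequence only.

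ADAM10 is a main sheddase of epithelial cells and cuts Notch receptors and E-cadherin. It had 8.19, 8.13 and 8.20 on the D319N arrays, 7.96, 7.96 and 7.77 on the Y261A arrays and 7.90, 7.88 and 7.87 on the vector arrays. The D319N arrays were above all others, while Y261A and vector overlapped. ADAM10 rose 1.23-fold in D319N cells against vector cells (0.29 ± 0.05, adjusted p = 0.00793, limma) and 1.21-fold against Y261A cells (0.28 ± 0.05, adjusted p = 0.0120, limma). The second call was lost without D319N replicate 1 (adjusted p = 0.05005) and in a fit of the 2 groups alone (adjusted p = 0.0591).

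ADAM9, or meltrin gamma, a widely expressed sheddase that binds integrins, had 10.24, 10.23 and 10.24 on the D319N arrays, 10.00, 9.92 and 9.78 on the Y261A arrays and 10.00, 10.00 and 9.92 on the vector arrays. Its D319N arrays were nearly equal and lay above the other 6. The rise was 1.2-fold against vector cells (0.26 ± 0.05, adjusted p = 0.0156, limma) and 1.26-fold against Y261A cells (0.34 ± 0.05, adjusted p = 0.00700, limma). Against vector cells the call was lost without D319N replicate 1 (adjusted p = 0.0570), D319N replicate 3 (adjusted p = 0.0513) or vector replicate 3 (adjusted p = 0.0549).

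The other 5 somatic ADAMs with a catalytic site were not called in any comparison. ADAM17, the TNF-alpha converting enzyme and main sheddase of amphiregulin, had 7.67, 7.66 and 7.69 on the D319N arrays, 7.68, 7.71 and 7.45 on the Y261A arrays and 7.69, 7.71 and 7.59 on the vector arrays. These ranges overlapped. The difference was 0.0068 between D319N and vector cells, with a 95% interval of -0.15 to 0.17, and -0.053 between Y261A and vector cells, with an interval of -0.21 to 0.11. ADAM15, which carries an integrin-binding RGD motif, differed by -0.062 (interval -0.17 to 0.046) and -0.072 (interval -0.18 to 0.036) in the same comparisons. ADAM8, known from leukocytes, and ADAM33, known from airway smooth muscle, each differed by -0.12 between D319N and vector cells without passing. ADAM28 had the same value, 3.62, on all 9 arrays, near background. Of the 9 genes of this role, 4 rose in D319N cells against vector cells and the median difference was 0.0068. Over all genes 8.93% were called higher and 7.66% lower in that comparison, and 21.1% of genes at or above background were called.

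Among the ADAMs without a catalytic site that are known from neurons, ADAM23, a partner of the LGI proteins, had 4.82, 4.81 and 4.83 on the D319N arrays. It had 4.75, 4.72 and 4.75 on the Y261A arrays and 4.71, 4.64 and 4.75 on the vector arrays. All 9 values were near background, and the D319N arrays were the highest by a small margin. ADAM23 was called against vector cells (0.12 ± 0.03, 1.09-fold, adjusted p = 0.0237, limma) and was nearest to the threshold of the called genes. This call was lost in 5 of 18 alternatives, with an adjusted p of up to 0.543 when every gene was given at least the median spread of genes without ties. The other losses came without D319N replicate 1 (adjusted p = 0.0742), D319N replicate 3 (adjusted p = 0.0725) or vector replicate 1 (adjusted p = 0.0664), and in a fit of the 2 groups alone (adjusted p = 0.0582). Against Y261A cells it did not pass (0.085 ± 0.028, adjusted p = 0.0871), and it was the uncalled gene nearest to the threshold there. It passed in 3 of 18 alternatives, with array weights (adjusted p = 0.0174), with quantile normalization (0.14, adjusted p = 0.0297) and without vector replicate 2 (adjusted p = 0.0450). ADAM11 and ADAM22 were not called, and ADAM22 was near background.

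The 7 ADAMs known from the testis and epididymis had no member above background in all 3 groups. ADAM21, a testis protease, was the uncalled gene nearest to the threshold between D319N and vector cells. It had 4.10, 3.86 and 3.72 on the D319N arrays, 3.61, 3.72 and 3.54 on the Y261A arrays and 3.76, 3.53 and 3.68 on the vector arrays. The D319N array with the lowest value overlapped the vector arrays (0.24 ± 0.11, adjusted p = 0.195, limma). The difference was 0.13 without D319N replicate 1. With array weights ADAM21 passed against vector cells (0.41, adjusted p = 0.00577, limma) and against Y261A cells (0.43, adjusted p = 0.00613, limma). In that setting 51.9% and 46.4% of all genes were called in these comparisons. With the floor on the spread ADAM21 passed against Y261A cells (0.28, adjusted p = 0.0297, limma), where 16.1% of all genes were called. Without D319N replicate 1 the difference from Y261A cells was 0.17. ADAM2, the sperm protein fertilin beta, and ADAM18 gave 1 value each on all 9 arrays, 2.54 and 2.91.

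**Figure D2:**
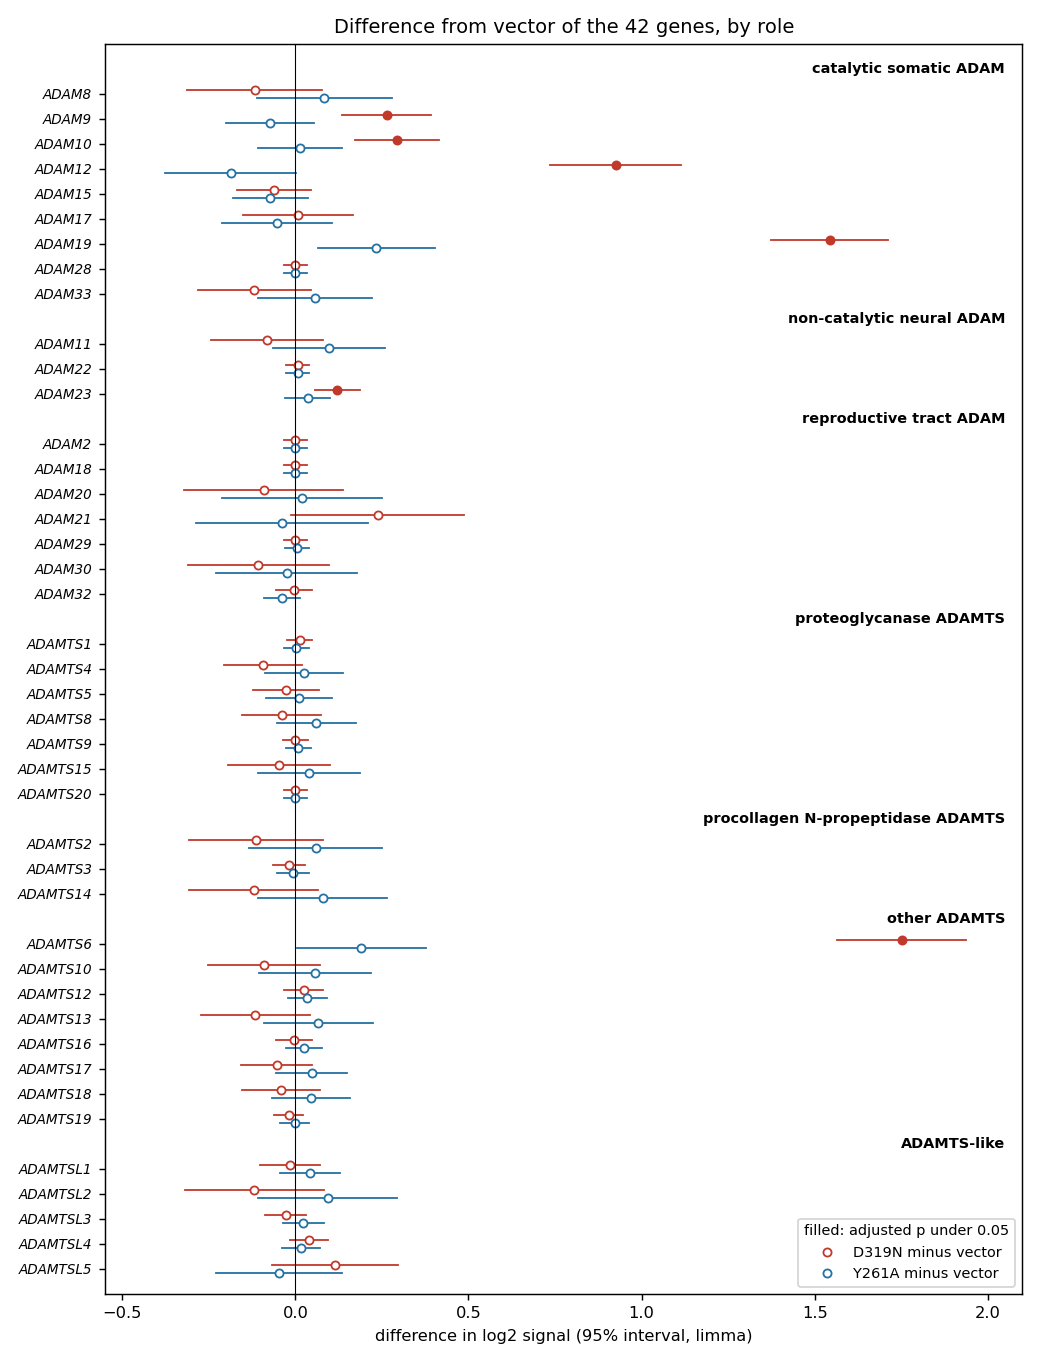
Difference in log2 signal from the vector group with its 95% interval (limma) for D319N cells (red) and Y261A cells (blue), with the 42 genes grouped by role and filled points for an adjusted p under 0.05. The 6 filled points all belong to D319N cells and lie to the right of 0, and of the other intervals for D319N and Y261A cells those of ADAM19 and ADAMTS6 in Y261A cells do not cross 0.

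Beside ADAMTS6, none of the 17 other ADAMTS genes was called in limma in any comparison. Over all genes 16.6% were called between D319N and vector cells, 0.353% between Y261A and vector cells and 14.6% between D319N and Y261A cells. The 7 proteoglycanases, which cut aggrecan and versican, differed by -0.094 to 0.012 between D319N and vector cells and by 0 to 0.060 between Y261A and vector cells. ADAMTS15 had 6.19, 6.21 and 6.09 on the D319N arrays, 6.15, 6.21 and 6.39 on the Y261A arrays and 6.21 on each vector array. The ranges overlapped, and the difference was -0.046 ± 0.063 between D319N and vector cells. ADAMTS1, ADAMTS9 and ADAMTS20 were near background in every group, and ADAMTS20 had 2.85 on all 9 arrays. The procollagen N-propeptidases, which trim fibrillar collagens, differed by -0.12 (ADAMTS14), -0.11 (ADAMTS2) and -0.018 (ADAMTS3) between D319N and vector cells. ADAMTS2 had 6.42, 6.53 and 6.34 on the D319N arrays, 6.53, 6.49 and 6.79 on the Y261A arrays and 6.56, 6.54 and 6.53 on the vector arrays. ADAMTS13, which cuts von Willebrand factor, had 6.33 on each vector array and differed by -0.12 ± 0.07 in D319N cells (adjusted p = 0.302, limma). ADAMTS10, the nearest relative of ADAMTS6, differed by -0.092 ± 0.069 in D319N cells (adjusted p = 0.414, limma), with a 95% interval of -0.25 to 0.070.

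None of the 5 ADAMTS-like genes was called in limma, and 0 to 1 of them had an unadjusted p under 0.05 in a comparison. Over all genes 28.5% had such a p between D319N and vector cells, 10.4% between Y261A and vector cells and 34.4% between D319N and Y261A cells. ADAMTSL5, a fibrillin-binding protein, had 7.02, 7.07 and 6.89 on the D319N arrays, 6.88, 6.66 and 6.95 on the Y261A arrays and 6.88, 6.88 and 6.87 on the vector arrays. The lowest D319N array lay just above the highest vector array, and the difference did not pass (0.11 ± 0.08, adjusted p = 0.369, limma). ADAMTSL4, which is linked to the suspension of the eye lens, differed by 0.040 ± 0.023 (adjusted p = 0.311, limma). The other 3, ADAMTSL1 to ADAMTSL3, differed by -0.12 to -0.016 in D319N cells.

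Over the whole family, 36 genes were not called in any comparison. Between D319N and vector cells they differed by -0.12 (ADAMTS14) to 0.24 (ADAM21), and 35 of the 36 were within 0.15 of 0. Between Y261A and vector cells all 36 were within 0.15 of 0, from -0.072 (ADAM15) to 0.097 (ADAM11). Between D319N and Y261A cells they differed by -0.21 (ADAMTSL2) to 0.28 (ADAM21), and 27 of the 36 were within 0.15 of 0. In 4 genes, ADAM2, ADAM18, ADAM28 and ADAMTS20, the summary value was the same on all 9 arrays, and 34 of the 42 had a value tied within a group. RMA summarises probes by median polish, which can give equal values, and a spread made of tied values can be too small.

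**Figure D3:**
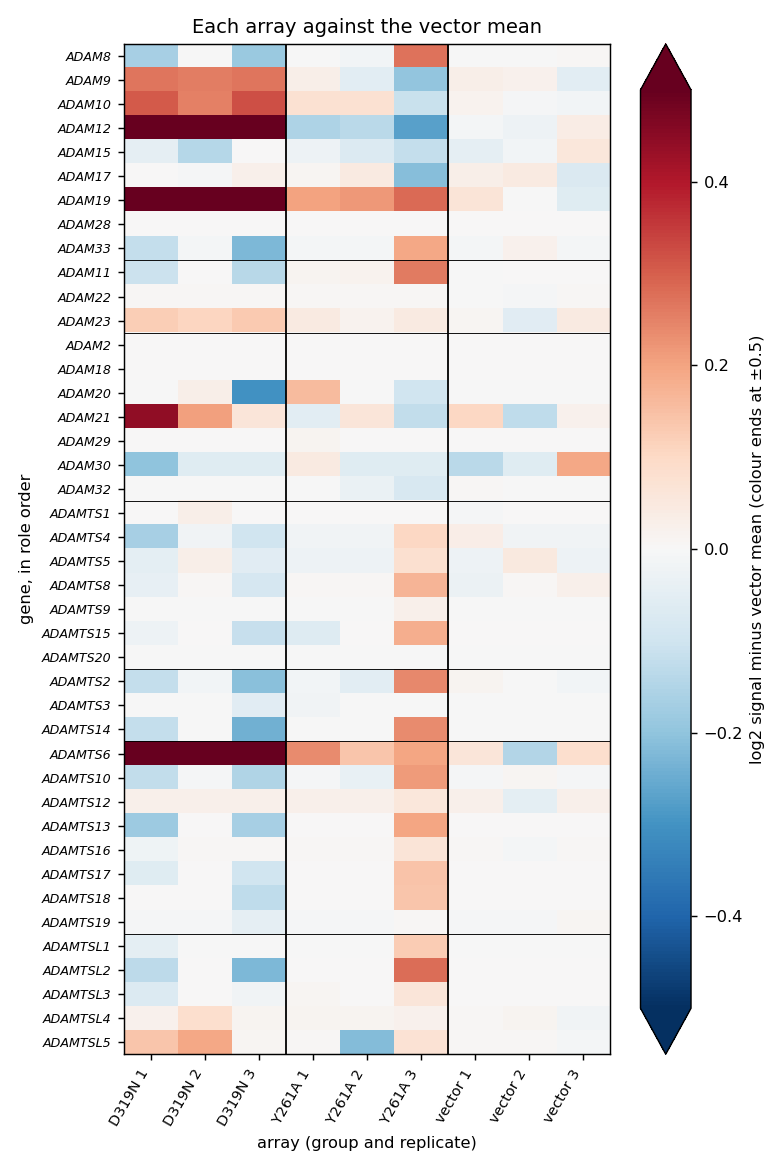
Log2 signal of each of the 42 genes (rows, in role order) on each of the 9 arrays (columns) minus the gene's vector mean, with the colour scale ending at ±0.5. The rows of ADAMTS6, ADAM19 and ADAM12 are red on all 3 D319N arrays, and the column of Y261A replicate 3 is red in many rows of genes that were not called, in contrast to the other Y261A arrays.

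In Y261A cells none of the 42 genes was called against vector cells in limma, beside 0.353% of all genes, and 2 had an unadjusted p under 0.05 (4.76%), beside 10.4% of all genes. These 2 were ADAM19 (0.23 ± 0.07, 1.18-fold, adjusted p = 0.325) and ADAMTS6 (0.19 ± 0.08, 1.14-fold, adjusted p = 0.472). The 95% intervals were 0.066 to 0.40 for ADAM19 and 0.0036 to 0.38 for ADAMTS6. ADAM12 differed by -0.19 ± 0.08 (interval -0.38 to 0.0024, adjusted p = 0.488). In these 3 genes and in ADAM11 the Y261A and vector arrays did not overlap, 9.52% of the family beside 13.4% of all genes. Of these, 3 were higher in Y261A cells, beside 4.11% of all genes, and ADAM12 was lower, beside 9.24% of all genes. ADAM10 differed by 0.014 (interval -0.11 to 0.14) and ADAM9 by -0.073 (interval -0.20 to 0.055). With arrays weighted by their quality ADAM19 passed (0.19, adjusted p = 0.0468, limma). It was the only gene of the family called in that setting, 2.38% beside 4.41% of all genes.

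D319N and Y261A cells were compared directly, with the same arrays that enter the comparisons with vector. Of the 42 genes 5 were higher in D319N cells and none was lower, 11.9% beside 14.6% of all genes. They were ADAM19, ADAMTS6, ADAM12, ADAM9 and ADAM10, and ADAM10 was the called gene nearest to the threshold. By direction, 9.92% of all genes were higher in D319N cells and 4.72% lower. In all, 14 of the 42 (33.3%) had an unadjusted p under 0.05, beside 34.4% of all genes. The 9 of these that were not called were ADAM21 (0.28), ADAM23 (0.085), ADAMTS13 (-0.18), ADAM11 (-0.18), ADAM8 (-0.20), ADAM33 (-0.18), ADAMTS14 (-0.20), ADAMTSL2 (-0.21) and ADAMTS4 (-0.12), the last 7 with adjusted p-values between 0.115 and 0.136. The groups did not overlap in 8 genes, 19% of the family beside 28.1% of all genes. Of these, 7 were higher in D319N cells (16.7%, beside 15.5% of all genes) and ADAM11 was lower (2.38%, beside 12.6%).

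Leaving out the 2 arrays that stood apart added calls among the small negative differences. Without D319N replicate 2 and Y261A replicate 3, 16 of the 42 genes were called between D319N and vector cells, the same 6 higher and 10 others lower, by 0.080 to 0.18 on the log2 scale. The family's shares were 14.3% higher and 23.8% lower, beside 15.7% and 19.9% of all genes in that setting. Between D319N and Y261A cells 15 were called, the same 5 higher and 10 lower, or 11.9% and 23.8%, beside 14.4% and 13.5% of all genes. Among the lower genes, ADAMTS13, ADAMTS14, ADAMTS17 and ADAMTSL2 each gave 1 value on all 3 vector arrays and Y261A replicates 1 and 2. The spread behind calls on such tied values can be too small. With array weights 19 genes of the family were called between D319N and vector cells, 7 higher and 12 lower, and 21 between D319N and Y261A cells, 8 higher and 13 lower. The family's called shares of 45.2% and 50% stand beside 51.9% and 46.4% of all genes with array weights. The seventh gene higher than in vector cells was ADAM21, and ADAM21, ADAM23 and ADAMTSL5 were the 3 added above Y261A cells. ADAM8, ADAM11, ADAM33, ADAMTS2, ADAMTS4, ADAMTS10, ADAMTS13, ADAMTS14, ADAMTS17 and ADAMTSL2 were the 10 genes called lower in D319N cells without the 2 arrays. On D319N replicate 2 the 6 called genes went the other way: it was the lowest of the 3 D319N arrays for each of them.

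The partners of the proteases were described by lists. Of 12 genes that mature or traffic ADAM10 and ADAM17, 5 rose and none fell in D319N cells, with a median difference of 0.085. Over all genes 8.93% were called higher and 7.66% lower in that comparison. Among genes with a mean at or above background, as all 12 had, 21.1% were called. TSPAN5, a tetraspanin that carries ADAM10 to the cell surface, had 6.62, 6.48 and 6.65 on the D319N arrays, 5.68, 5.72 and 5.54 on the Y261A arrays and 5.56, 5.54 and 5.56 on the vector arrays. It was higher on all 3 D319N arrays (1.03 ± 0.06 against vector, adjusted p = 4.79e-05, limma). RHBDF1, or iRhom1, which carries ADAM17 (0.27), FURIN, which removes the prodomains (0.56), and TSPAN17, another ADAM10 carrier (0.18), rose as well. RHBDF2, or iRhom2, differed by -0.073 and did not pass.

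Of 6 inhibitors and clearance receptors, 3 rose in D319N cells, beside 8.93% of all genes called higher and 7.66% lower. TIMP1, an inhibitor of metalloproteases and of ADAM10, had 9.28, 9.19 and 9.28 on the D319N arrays, 8.03, 7.92 and 7.96 on the Y261A arrays and 7.82, 7.97 and 7.87 on the vector arrays. The D319N arrays were all higher (1.36 ± 0.05 against vector, adjusted p = 6.85e-06, limma). LRP1, the receptor that takes up ADAMTS5 (0.89), and RECK, a membrane-anchored inhibitor near background (0.17), rose too. TIMP3, the main inhibitor of ADAM17 and the aggrecanases, differed by 0.0037 ± 0.0471 (adjusted p = 0.992).

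Among 7 EGF family ligands that are shed, 4 rose and 1 fell in D319N cells. For this list and the next, the shares over all genes were 8.93% called higher and 7.66% lower. EREG, or epiregulin, rose by 2.28, NRG1, or neuregulin, by 0.39 and TGFA by 0.20, while EPGN, or epigen, fell by 1.29 on the log2 scale. Of 31 other shed membrane proteins, 11 rose and 5 fell, with a median difference of 0.018. The 4 with the smallest p were CDH1, or E-cadherin, an ADAM10 substrate (-1.38), CDH2, or N-cadherin (0.94), CXCL16, a membrane-bound chemokine (-0.46), and the receptor NOTCH1 (-0.42). AXL, a receptor tyrosine kinase, rose by 1.10.

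Of 21 matrix substrates and partners of the ADAMTS and ADAMTS-like proteins, 8 rose and none fell in D319N cells, with a median of 0. The 4 with the smallest p were FN1, or fibronectin (4.90), LOX, a lysyl oxidase that cross-links collagen (2.29), LTBP1, a latent TGF-beta binding protein (1.55), and VEGFC, a lymphatic growth factor whose processing needs ADAMTS3 (1.70). VCAN, the proteoglycan versican, rose by 0.94, with 7.94, 7.73 and 7.95 on the D319N arrays, 7.07, 7.02 and 6.71 on the Y261A arrays and 6.93, 6.88 and 6.99 on the vector arrays. Of 3 genes that modify thrombospondin repeats with sugars, B3GLCT (0.25) and DPY19L3 (0.38) rose and POFUT2 did not pass. Between D319N and Y261A cells the called genes were 4 higher and none lower for maturation and trafficking, 3 and none for inhibitors and clearance, 3 and 1 for EGF family ligands, 12 and 4 for other shed proteins, 8 and none for matrix substrates and 2 and none for repeat glycosylation. The largest of these differences were those of FN1 (2.73), LOX (2.48) and EREG (2.11). In Y261A cells 2 genes of all these lists were called against vector cells, FN1 (2.17) and LTBP1 (0.63). Over all genes the called shares against vector cells were 8.93% higher and 7.66% lower in D319N cells and 0.138% higher and 0.214% lower in Y261A cells. Between D319N and Y261A cells they were 9.92% higher and 4.72% lower.

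**Figure D4:**
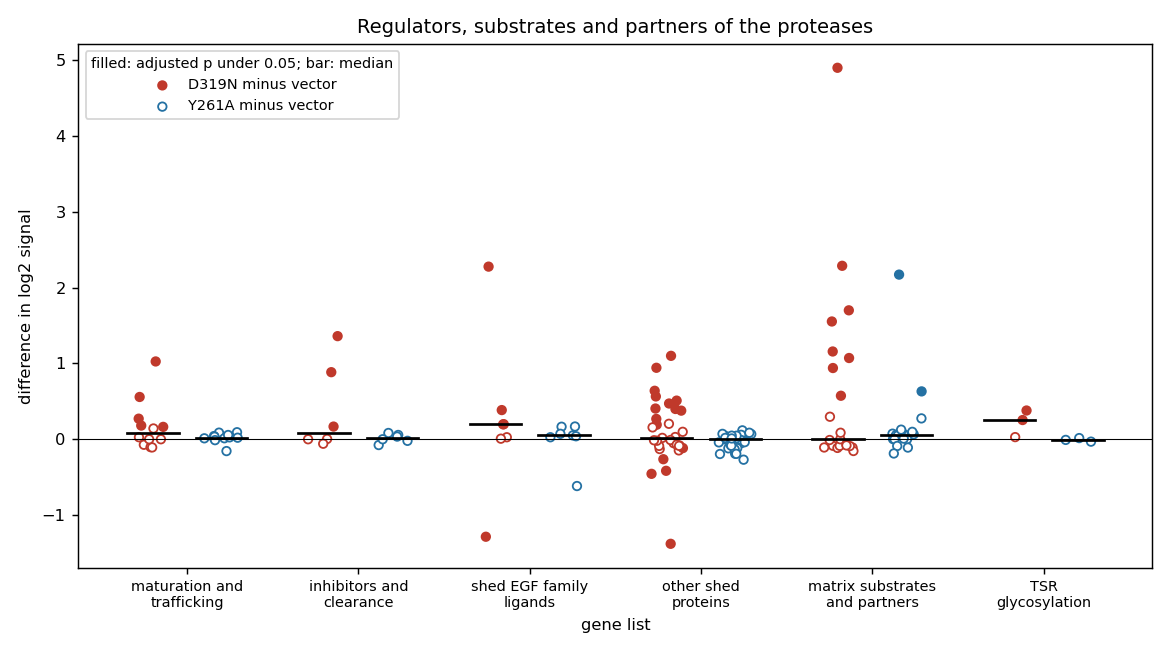
Difference in log2 signal from vector cells of each gene in 6 lists of regulators, substrates and partners, for D319N cells (red, left) and Y261A cells (blue, right), with filled points for an adjusted p under 0.05 and a bar at the median. Filled red points occur in each list, and FN1 and LTBP1 are the only filled blue points.

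Neighbouring genes were looked at for the 6 called genes, as the nearest measured protein-coding gene on each side in RefSeq order. For ADAMTS6 these were CWC27 (-0.070) and CENPK (-0.030), for ADAM19 NIPAL4 (-0.023) and SOX30 (-0.013), and for ADAM12 FANK1 (0) and C10orf90 (0.039), none of them called between D319N and vector cells in limma. Next to ADAM9, TM2D2 was higher in D319N cells (0.39 ± 0.09, adjusted p = 0.0218, limma), while ADAM32 on the other side, which belongs to the family, differed by -0.0035. Next to ADAM23, ZDBF2 was higher (0.45 ± 0.12, adjusted p = 0.0432, limma), while DYTN on the other side differed by -0.00042 (adjusted p = 1). The neighbours of ADAM10, AQP9 (-0.059) and MINDY2 (0.21), did not pass.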

How the data were processed

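The authors deposited RMA signals, read here as log2 values from their range (1.08 to 14.45), which the submitters' processing notes credit to Affymetrix Expression Console 1.4. RMA corrects background, equalises the arrays and summarises probes by median polish. No label or file header names the array's genome build, and no array coordinates are printed. Precision is limited by the number of arrays. The table held 70523 rows, and the platform annotation gave 23781 of them a single symbol, updated through Entrez identifiers in RefSeq (306 changed). Where a gene had more than 1 row (528 genes), its row of highest mean stood for it, leaving 22411 genes.

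Groups were taken from the sample titles and compared with limma 3.58.1 in R 4.3.3, with a mean per group over all 9 arrays (6 residual degrees of freedom), eBayes moderation and Benjamini-Hochberg adjustment over all genes within each of 3 comparisons. Errors of differences are moderated SEs and intervals are 95%. Tested on simulated arrays for D319N against vector with 22411 genes, limma recovered 25 of the 50 genes given a 1.2-fold change, 43 of those given 1.5-fold, 48 at 2-fold and 50 at 4-fold, and made 13 false calls. The simulated noise was independent between genes and arrays, and few genes were changed. The real arrays shared deviations and held tied values in 14207 genes, so these counts do not give the error rate on them. Named genes are the called ones, ADAM10, ADAM17, those nearest to the threshold, the brightest of each remaining role, and up to 4 called genes per list. Other named genes were chosen after their values were seen. The genes and lists were chosen with earlier results of these data known. Of 174 list entries, 158 were measured. The reported fit did not pair arrays by replicate number. Between groups, deviations of same-numbered arrays correlated at -0.448 to 0.208 and those of arrays with other numbers at -0.476 to 0.604. These correlations cannot show whether the cultures were paired.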

Additional observations from a re-analysis of the deposited data

How the results depend on the processing

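Of 19 alternatives, those that left out 1 array each gave 4 to 6 called genes of the 42 between D319N and vector cells, 4 to 6 between D319N and Y261A cells and 0 between Y261A and vector cells. With array weights these counts were 19, 21 and 1, and without D319N replicate 2 and Y261A replicate 3 they were 16, 15 and 0. The replicate number as a block gave 6, 5 and 0, as in the reported fit, so the block changed no call count of the family. Over all genes, calls without 1 array ran from 2523 to 4572 (D319N against vector), 1941 to 5302 (D319N against Y261A) and 9 to 133 (Y261A against vector). They were 11631, 10403 and 988 with array weights, and 7979, 6259 and 157 without the 2 arrays. D319N against Y261A gave 1933 in a fit of the 2 groups. Y261A against vector gave 45 with centred arrays, 134 with quantile normalization, 13 with the replicate block and 252 with the spread floor, in place of 79. Of the genes called between D319N and vector cells, 53.8% were higher, and 63.5% with centring, 38.3% with array weights and 44.2% without the 2 arrays, so the majority direction turned in the last 2 settings. Between D319N and Y261A cells the share was 67.8%, and 77.9% with centring, 55% with quantile normalization, 41.7% with array weights and 51.6% without the 2 arrays. Between Y261A and vector cells it was 39.2%, and 58.2% with quantile normalization. As to the pairing, 2 of 9 arrays correlated best with an array of their own replicate number.

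Small differences turned sign, none of them called. ADAM17 gave -0.017 and -0.022 between D319N and vector cells with array weights and quantile normalization, -0.011, -0.012 and -0.014 between D319N and Y261A cells with these and without the 2 arrays, and 0.027 between Y261A and vector cells without the 2 arrays. Without 1 array its ranges were -0.030 to 0.030, -0.021 to 0.11 and -0.10 to 0.027. Between Y261A and vector cells, ADAM9 gave 0.049 with quantile normalization, ADAM21 0.0044 without the 2 arrays, ADAMTS15 -0.041 and -0.033 and ADAMTS2 -0.020 and -0.032 with array weights and without the 2 arrays. Without 1 array the ranges there were -0.017 to 0.077 for ADAM10, -0.10 to 0.015 for ADAM21, -0.033 to 0.091 for ADAMTS15, -0.032 to 0.11 for ADAMTS2 and -0.11 to 0.038 for ADAMTSL5. ADAMTS15 gave 0.011 between D319N and Y261A cells with array weights. The cause was not tested. Signals near background limit what the arrays can show for 16 of the 42 genes.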
